A study of Arabidopsis thaliana with 10 samples.

Results

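The senescence change described here is the difference between fully expanded leaves of wild type Arabidopsis thaliana at developmental stage 6.0 and at stage 3.9. It rests on 4 arrays of the 10 in the series, 2 at each stage, chosen by their labelled genotype and stage, with the 6 arrays of NahG, ein2 and coi1 leaves entering to share the estimate of spread, in the filter on low signals and as stage 6.0 values of a few genes. In the growth scale in general use, the earlier stage is the end of rosette growth and the later one the start of flowering. Each stage had 1 array of stock N933, called array 1, and 1 of stock N1644, called array 2. Another label gives Col-0 as the source of both N933 arrays. The stage 3.9 array of stock N1644 is labelled Col-5 there but its stage 6.0 counterpart Col-0, so the stock of that array rests on conflicting labels. All plants grew on compost in a growth room at 18 °C with a 12 h day and received no treatment. How many plants or leaves went into an array, and which leaf of the rosette was taken, the labels do not say, and p-values then measure only the spread between these arrays, which includes any difference between stocks.

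Leaf senescence is the ordered dismantling of a leaf that has finished growing. Chloroplasts, which hold most leaf protein, are taken apart, and nitrogen, phosphorus and sugars are exported to growing organs while mitochondria and the nucleus stay active until late. Genes of leaf growth, chloroplast building, protein recycling, nutrient export and stress tolerance were therefore looked at group by group. Groups were made by matching gene symbols and synonyms, so they hold only genes for which a symbol was available, and their size is the number tested and not that of the gene family.

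Each array reports 22810 probe sets as an intensity on a linear scale, here scaled to a 2% trimmed mean of 100, and 12184 probe sets with a signal of at least 50 on at least 2 of the 10 arrays were tested. The threshold was an adjusted p under 0.05 in limma, which 37.4% of those tested passed, 20.2% (2461) as rises and 17.2% (2099) as falls. Counting each of 6414 genes once, 17.8% rose and 17.1% fell, and these shares are the background for the counts below from this fit. Counts after another scaling or without an array come from other fits, with other background shares. The signals of the stages did not overlap for 67.4% of all probe sets tested, so non-overlap of a single gene is common. Most genes named below as having passed were chosen with non-overlap as a condition. For them it is no separate result. Log2 changes were taken on signal + 16, which understates the change of dim genes. The bacterial and phage controls added at hybridisation gave mean signals of 440.1 and 411 at stage 3.9 but 232 and 257 at stage 6.0. On the other stage 6.0 arrays they gave 298 and 230 for NahG, 267 and 342 for ein2 and 183 and 365 for coi1. The fit scaled to the controls takes its spread from all 10 arrays. Differences between the controls of replicate arrays therefore enter its calls, also those described below as lost. Scaled to these controls, the median log2 change of all probe sets tested moved from 0.05 to 0.72. Of the 12184 probe sets, 3827 then rose and 447 fell, which is the background for counts given with that scaling. Elsewhere, a rise or fall below is relative to the bulk of leaf transcripts. The part of RNA amount per leaf or per cell in this shift was not tested, and in such bulk samples fewer cells of a type and less RNA per cell cannot be told apart. The ubiquitin control gave a 3' to 5' signal ratio of 2.12 and 2.24 at stage 3.9 and of 1.34 and 1.30 at stage 6.0. A second ubiquitin ratio, an actin ratio and a GAPDH ratio were also lower on both stage 6.0 arrays. Another actin ratio went the other way, from 5.09 and 4.09 to 10.0 on stage 6.0 array 1 and 5.18 on array 2. So did another GAPDH ratio, from 0.97 and 0.96 to 1.17 and 1.02. The part of RNA quality in the results was not tested. As a check of the tissue, the 6 leaf markers tested (of the light-harvesting complex, the Calvin cycle and its activation) were bright at both stages, for example 4378 and 3562 at stage 3.9 and 1815 and 2422 at stage 6.0 for RCA, the Rubisco activase, though all 6 fell (median -1.54), or 2 with scaling to the controls. No floral, vascular, guard cell, trichome or root marker of the lists was among the probe sets tested under its name, so those cell types were not checked. Of the markers of dividing cells, 1 was tested: PRL, a subunit of the replication helicase, had signals of 68.6 and 71.0 at stage 3.9 and 21.3 and 28.6 at stage 6.0, a change of -1.07 ± 0.26 (log2 ± SE, adjusted p = 0.00775) that missed the threshold without stage 6.0 array 1 (-0.94, adjusted p = 0.0508). The call of PRL was lost with scaling to the controls.

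The change reached far beyond a few strongly responding genes. Among probe sets that passed, 1224 rose and 1172 fell by at least 1 on the log2 scale, 320 rose and 296 fell by at least 2, and 22 rose and 25 fell by at least 4. A total of 59 probe sets went from a signal below 50 on both stage 3.9 arrays to at least 200 on both stage 6.0 arrays, and 46 went the other way. Signal was less concentrated in the brightest probe sets at stage 6.0. The 100 brightest probe sets of each array held 14.5% and 13.6% of all signal at stage 3.9 and 9.51% and 9.85% at stage 6.0. They were picked on each array separately, so these shares do not follow a fixed set of transcripts. A signal of 3000 was reached by 112 and 114 probe sets at stage 3.9 against 30 and 36 at stage 6.0. Among the single-gene losses of signal, LHCB4.1, a minor light-harvesting protein of photosystem II, had 5912 and 5019 at stage 3.9 and 1625 and 1866 at stage 6.0. The largest gain of signal under a gene symbol was that of GAMMA-VPE, a vacuolar cysteine protease, with 1211 and 1675 at stage 3.9 and 4152 and 4873 at stage 6.0. The plot of gene groups sets their members beside each other.

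**Figure D1:**
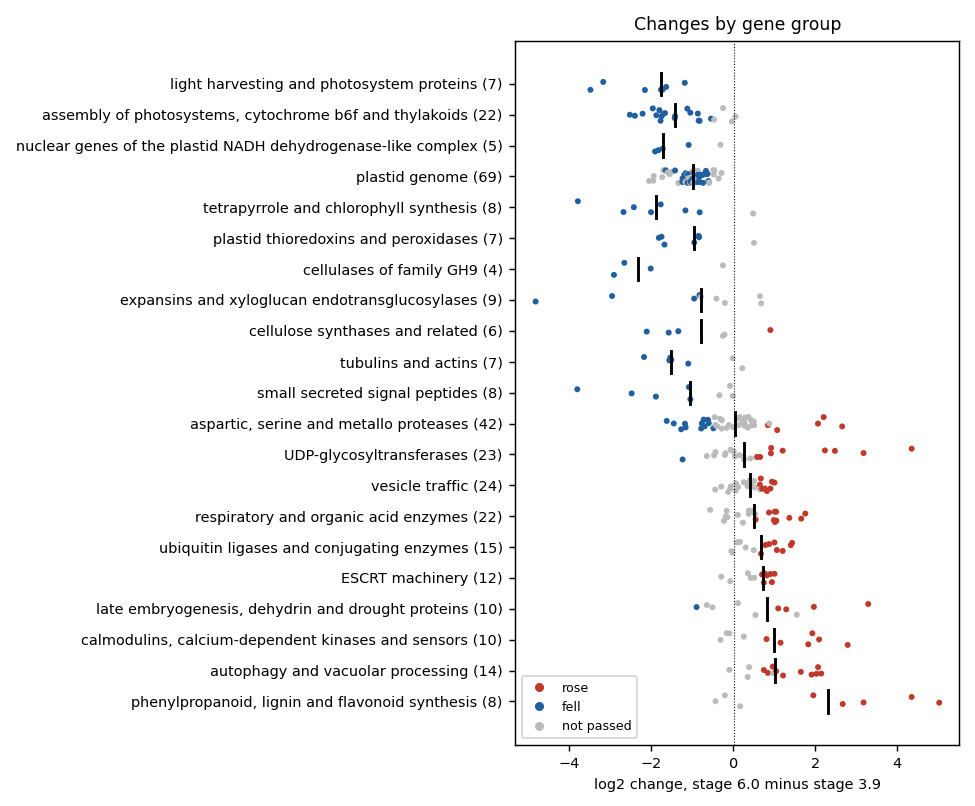
Log2 change from stage 3.9 to stage 6.0 in wild type leaves (x axis) for the genes tested in each group (rows, number tested in brackets). Points are genes, black bars are group medians and the dotted line is the median of all 6414 genes. Under the scaling to the bulk of transcripts, groups of chloroplast, wall, tubulin and peptide genes lie left of it. Those of autophagy, calcium sensing and phenylpropanoids lie right of it. The rows are a selection of the lists. Thylakoid assembly, NADH dehydrogenase-like complex, plastid thioredoxin, GH9, peptide, respiratory and ESCRT lists were drawn up after values were seen, so their side is no separate result.

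Genes of chlorophyll synthesis fell at most of the steps tested. Of 8 genes tested, 7 fell and 0 rose, with a median log2 change of -1.89, and with scaling to the hybridisation controls 5 fell, 1 rose and the median was -1.16. The first steps make the precursor 5-aminolevulinic acid and the tetrapyrrole ring, and are shared with heme. HEMA2, which encodes a glutamyl-tRNA reductase at the head of the pathway, had signals of 50.4 and 41.4 at stage 3.9 and 71.6 and 69.2 at stage 6.0. Its stage 6.0 arrays were the higher ones, without overlap, and its change of 0.48 ± 0.18 did not pass (adjusted p = 0.058), whereas it was called a rise with scaling to the controls. HEME1 and HEME2, uroporphyrinogen decarboxylases, changed by -1.77 ± 0.21 and -2.01 ± 0.16, and HEME2 had 525 and 510.2 at stage 3.9 and 121 and 113 at stage 6.0. The steps after the branch to chlorophyll showed the steepest falls. CHLI2, a subunit of the magnesium chelatase that commits the ring to chlorophyll, had 246 and 335 at stage 3.9 and 42.9 and 38.1 at stage 6.0, a change of -2.42 ± 0.35 (log2 ± SE, adjusted p = 0.000349). CHLM, the methyltransferase that acts next, had 1079.5 and 914 at stage 3.9 and 137 and 147 at stage 6.0, a change of -2.68 ± 0.19 (log2 ± SE, adjusted p = 3.75e-06). PORB, the light-dependent protochlorophyllide reductase, had 3533 and 2189 at stage 3.9 and 169 and 205 at stage 6.0, a change of -3.79 ± 0.26 (log2 ± SE, adjusted p = 2.60e-06). In each of these 3 genes both stage 3.9 arrays were higher than both stage 6.0 arrays, which the rule for naming them required. Of the carotenoid genes, 2 were tested and both fell: Z-ISO, an isomerase of the carotene chain, with a change of -0.85 ± 0.21, and LYC, the lycopene beta-cyclase, with one of -0.59 ± 0.16; LYC missed the threshold when stage 3.9 array 1 or either of the stage 6.0 arrays was left out, and its sign turned with scaling to the hybridisation controls (0.17). The call of Z-ISO was lost with scaling to the controls.

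**Figure D2:**
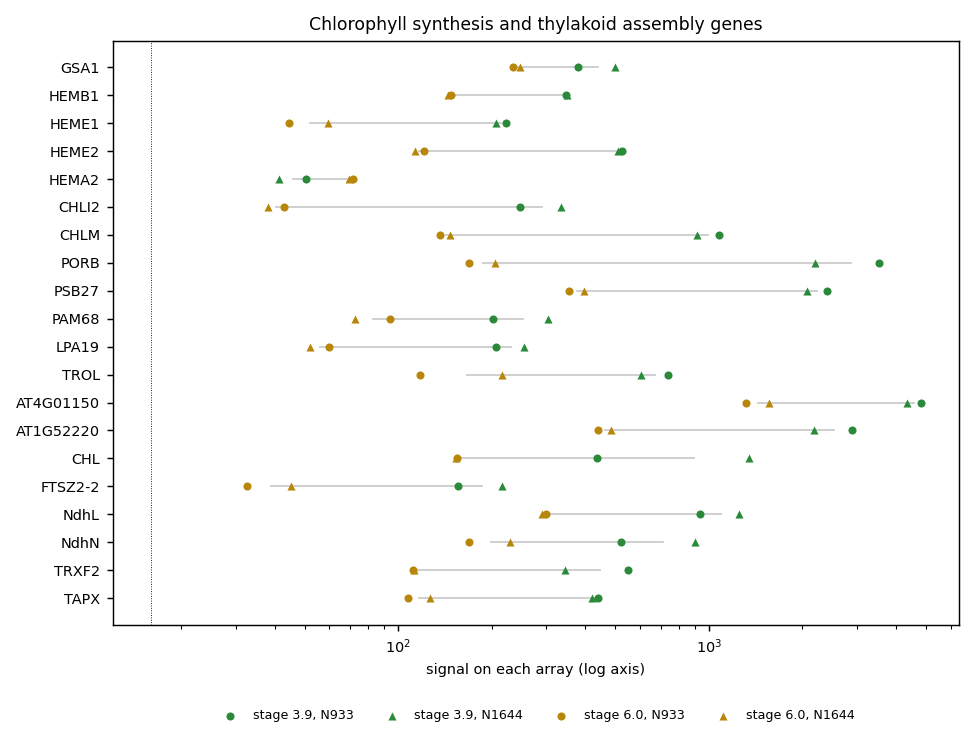
Signal on each of the 4 wild type arrays (x axis, log scale) for genes of chlorophyll synthesis (GSA1 to PORB) and of thylakoid assembly and redox control (PSB27 to TAPX). Green marks stage 3.9 and ochre stage 6.0, circles stock N933 and triangles stock N1644; grey lines join the stage means and the dotted line is the added 16. The stages do not overlap in the 20 genes, but these were picked with their values in view, many under a rule that asks for it. Non-overlap held for 67.4% of all probe sets tested. HEMA2 is the gene with the higher signals at stage 6.0.

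Transcripts for the assembly and shaping of the thylakoid membrane fell together with those of the photosystems themselves. This list was drawn up after values were seen. Of its 22 genes tested, 18 fell and 0 rose, with a median of -1.42, and 8 fell with scaling to the hybridisation controls, where the median was -0.68. PSB27, a lumenal factor for the assembly and repair of photosystem II, had 2395 and 2073 at stage 3.9 and 355 and 396 at stage 6.0, a change of -2.52 ± 0.18 (log2 ± SE, adjusted p = 3.75e-06). The stage 3.9 signals were all above those of stage 6.0. AT1G52220 and AT4G01150, listed in the names table as CURT1C and CURT1A, encode proteins that bend the grana margins. AT1G52220 had 2883 and 2181 at stage 3.9 and 441 and 485 at stage 6.0, a change of -2.40 ± 0.21, and AT4G01150 one of -1.66 ± 0.18. TROL, a thylakoid anchor of the ferredoxin-NADP reductase, had 741 and 605 at stage 3.9 and 117 and 217 at stage 6.0, a change of -1.96 ± 0.26. LPA19 and PAM68, both assembly factors of photosystem II, changed by -1.77 ± 0.17 and -1.42 ± 0.20, and CCB3, which helps attach heme to cytochrome b6, by -1.80 ± 0.22. FTSZ2-2, a tubulin-like protein of the ring that divides chloroplasts, had 156 and 216 at stage 3.9 and 32.5 and 45.1 at stage 6.0, a change of -1.88 ± 0.20, whereas its paralogue FTSZ2-1 stood at -0.25 ± 0.21 and did not pass. CHL, the chloroplastic lipocalin, had 437 and 1349 at stage 3.9 and 154 and 153 at stage 6.0, and its change of -2.21 ± 0.38 was -1.42 without stage 3.9 array 2. The 4 members that did not pass were LPA66, FTSZ2-1, TAAC and AT4G38100, between -0.47 and 0.05. The call of PAM68 was lost with scaling to the controls.

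The nuclear genes of the plastid NADH dehydrogenase-like complex, which returns electrons to the plastoquinone pool around photosystem I, showed the same direction. Of 5 tested 4 fell, with a median of -1.72 and 1 fall with scaling to the controls. The subunit gene NdhL had 936 and 1252 at stage 3.9 and 299 and 290.0 at stage 6.0, a change of -1.82 ± 0.21 (log2 ± SE, adjusted p = 7.50e-05), and NdhN changed by -1.72 ± 0.24. NdhS, at -0.31 ± 0.19, did not pass. Thioredoxins and peroxidases of the plastid, which pass reducing power from the photosystems to enzymes, fell in 6 of 7 genes with a median of -0.95, while 0 fell and 1 rose with scaling to the controls. TRXF2, a thioredoxin that switches on Calvin cycle enzymes, had 547 and 344 at stage 3.9 and 112 and 112 at stage 6.0, a change of -1.81 ± 0.25. Both stage 6.0 arrays lay at about the same level, below both stage 3.9 arrays. The thylakoid ascorbate peroxidase TAPX changed by -1.75 ± 0.16 and the thioredoxin gene ty2 by -1.68 ± 0.20, while its relative TY1 stood at 0.51 ± 0.20 and did not pass. These 2 lists were also drawn up after values were seen. In the wider list of glutaredoxins, thioredoxins and peroxidases, 21 genes were tested, of which 5 rose and 7 fell, with a median of -0.09. The rises of that list numbered 3 without stage 3.9 array 2. The calls of NdhN, TRXF2, TAPX, NdhL and ty2 were lost with scaling to the controls.

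Many transcripts encoded in the plastid genome fell. Of 69 such genes tested, 36 fell and 0 rose, with a median of -0.98. The median of the changes was -1.50 in stock N933 and -0.53 in stock N1644, a difference that was not tested. The number of falls was 11 without stage 6.0 array 1, 17 without stage 3.9 array 1, 16 after quantile normalization and 4 with scaling to the hybridisation controls, while the median stayed below 0 in all 4. The median signal over these genes was 1884 and 1551 on the stage 3.9 arrays and 616 and 1097 on the stage 6.0 arrays. Array 1 of stage 6.0 stood apart from array 2 in the dim tail of these genes. rpoB, a subunit of the plastid's own RNA polymerase, had 520.1 and 428 at stage 3.9 and 10.5 and 596 at stage 6.0, and rps14, a ribosomal protein, 807 and 551 at stage 3.9 and 47.3 and 840.1 at stage 6.0. Both were lowest on stage 6.0 array 1 and highest on stage 6.0 array 2, the stages overlapped, and neither passed (adjusted p = 0.194 and 0.25). Arrays of the other genotypes spanned a similar range, with rpoB signals of 127 and 49.4 for NahG plants, 465 and 114 for the ein2 mutant and 15.8 and 18.2 for the coi1 mutant. Bright plastid genes were not alike in this. atpA, a subunit of the ATP synthase, had 5172 and 4825 at stage 3.9 and 761 and 3020.2 at stage 6.0, with stage 6.0 array 1 again the lower one. atpB, another subunit of that enzyme, had 6775 and 6238 at stage 3.9 and 3493 and 3846 at stage 6.0, a change of -0.82 ± 0.19 (log2 ± SE, adjusted p = 0.00662) that missed the threshold without stage 6.0 array 1 (-0.75, adjusted p = 0.0515) and after quantile normalization (-0.10, adjusted p = 0.497). psbA, the D1 core protein of photosystem II, had 4032 and 3906 at stage 3.9 and 3100.3 and 2593 at stage 6.0 and did not pass (-0.48 ± 0.29). The call of atpB was lost with scaling to the controls.

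**Figure D3:**
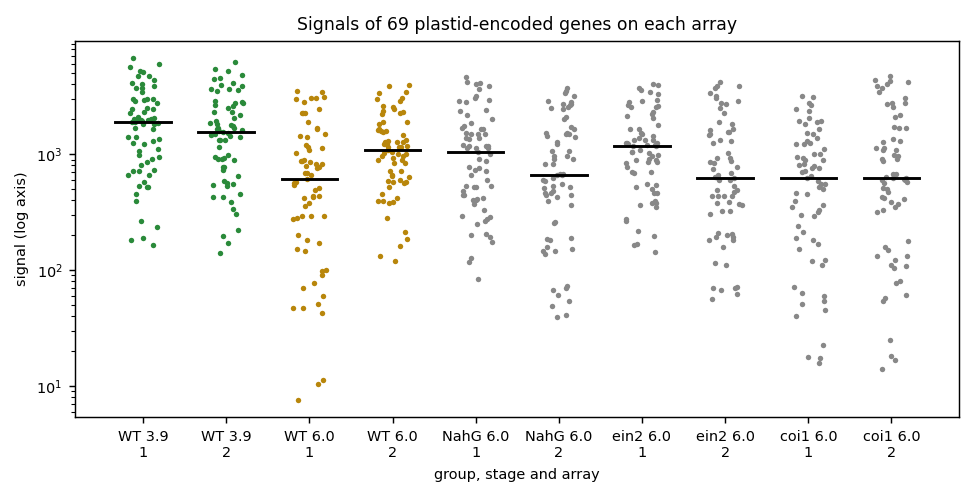
Signals of the 69 plastid-encoded genes tested (y axis, log scale) on each of the 10 arrays, with wild type stage 3.9 in green, wild type stage 6.0 in ochre and the other genotypes at stage 6.0 in grey. Points are genes and bars are medians; stage 6.0 wild type array 1 has a median of 616 and a tail of low values that array 2, at 1097, lacks.

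Several genes that loosen and build the cell wall, known for their part in leaf expansion, fell, and 1 rose. Of 9 expansin and xyloglucan endotransglucosylase genes tested, 4 fell and 0 rose, with a median of -0.79; with scaling to the controls 2 fell and 2 rose. The falls numbered 1 without stage 3.9 array 1, 2 without stage 3.9 array 2 and 2 without stage 6.0 array 1. XTH32, which cuts and rejoins xyloglucan chains, had 304 and 187 at stage 3.9 and 13.1 and 21.1 at stage 6.0, a change of -2.95 ± 0.25 (log2 ± SE, adjusted p = 1.02e-05). EXPA8, an alpha-expansin, had 765 and 559 at stage 3.9 and 2.52 and 14.4 at stage 6.0. Both genes went from clear signals on both stage 3.9 arrays to near or below the added 16. The expansin-like genes EXLA1 and EXLB1 stood at 0.68 ± 0.34 and 0.65 ± 0.28 and did not pass. Cellulases of family GH9, a list drawn up after values were seen, fell in 3 of 4 genes, and in 3 with scaling to the controls. GH9B7 had 571 and 361 at stage 3.9 and 40.1 and 53.8 at stage 6.0, a change of -2.91 ± 0.25 (log2 ± SE, adjusted p = 1.11e-05), GH9C2 changed by -2.66 ± 0.29 and GH9B8 by -2.01 ± 0.38. GH9A3 overlapped between stages and stood at -0.25 ± 0.31. Among 6 cellulose synthase-like and related genes 3 fell and 1 rose. CSLC04, a xyloglucan backbone synthase, had 541 and 376 at stage 3.9 and 75.5 and 112 at stage 6.0, a change of -2.11 ± 0.22, and COB, which is needed for oriented cell expansion, changed by -1.57 ± 0.24. CSLD2 was the riser, with 101 and 81.1 at stage 3.9 and 186 and 181 at stage 6.0, a change of 0.91 ± 0.21. The call of COB was lost with scaling to the controls.

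Tubulin transcripts fell in the same leaves. Of 7 tubulin genes tested, 5 fell, with a median of -1.51, and 2 fell with scaling to the controls (median -0.78). TUB5, a beta-tubulin, had 457 and 456 at stage 3.9 and 75.9 and 103 at stage 6.0, a change of -2.18 ± 0.19 (log2 ± SE, adjusted p = 1.32e-05). TUB6 and TUB7 changed by -1.51 ± 0.20 and -1.53 ± 0.22. All 3 were higher on both stage 3.9 arrays than on either stage 6.0 array. TUB9 and TUA1 overlapped between the stages and stood at -0.02 ± 0.26 and 0.22 ± 0.24. A family formed by its shared symbol, the IQD genes, encodes calmodulin-binding proteins that associate with microtubules. Of its 5 members tested, 4 fell and 0 rose, with a median of -1.09. IQD31 had 177 and 143 at stage 3.9 and 38.6 and 53.7 at stage 6.0, a change of -1.50 ± 0.23, and iqd32 stood at 0.47 ± 0.23 and did not pass; with scaling to the controls 0 fell and 1 rose, with a median of -0.50. The calls of TUB6, IQD31 and TUB7 were lost with scaling to the controls.

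Small secreted peptides that signal between cells changed in 1 direction. Of 8 genes tested, in a list drawn up after values were seen, 5 fell and 0 rose, with a median of -1.06. There were 3 falls with scaling to the controls, and 3 without either stage 3.9 array. RALFL34, a member of the peptide family that makes the apoplast alkaline and is read by receptor kinases, had 608 and 659 at stage 3.9 and 24.9 and 36.9 at stage 6.0, a change of -3.80 ± 0.19 (log2 ± SE, adjusted p = 4.68e-07). RALFL24 had 135 and 142 at stage 3.9 and 9.96 and 51.2 at stage 6.0, a change of -1.89 ± 0.42, or -1.20 without stage 6.0 array 1. RALFL22 and RALFL33 overlapped between stages and stood at -0.01 ± 0.22 and -0.08 ± 0.26. STOMAGEN, the mesophyll peptide that promotes stomata, had 56.2 and 105 at stage 3.9 and 0.403 and 1.11 at stage 6.0, a change of -2.48 ± 0.37 (log2 ± SE, adjusted p = 0.000466), or of -5.50 (adjusted p = 0.0522) with 1 added in place of 16. It was below the added 16 on both stage 6.0 arrays, so the size of its change is set by that constant. CLE41, a peptide that keeps vascular stem cells undifferentiated, changed by -1.08 ± 0.24. The call of CLE41 was lost with scaling to the controls.

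**Figure D4:**
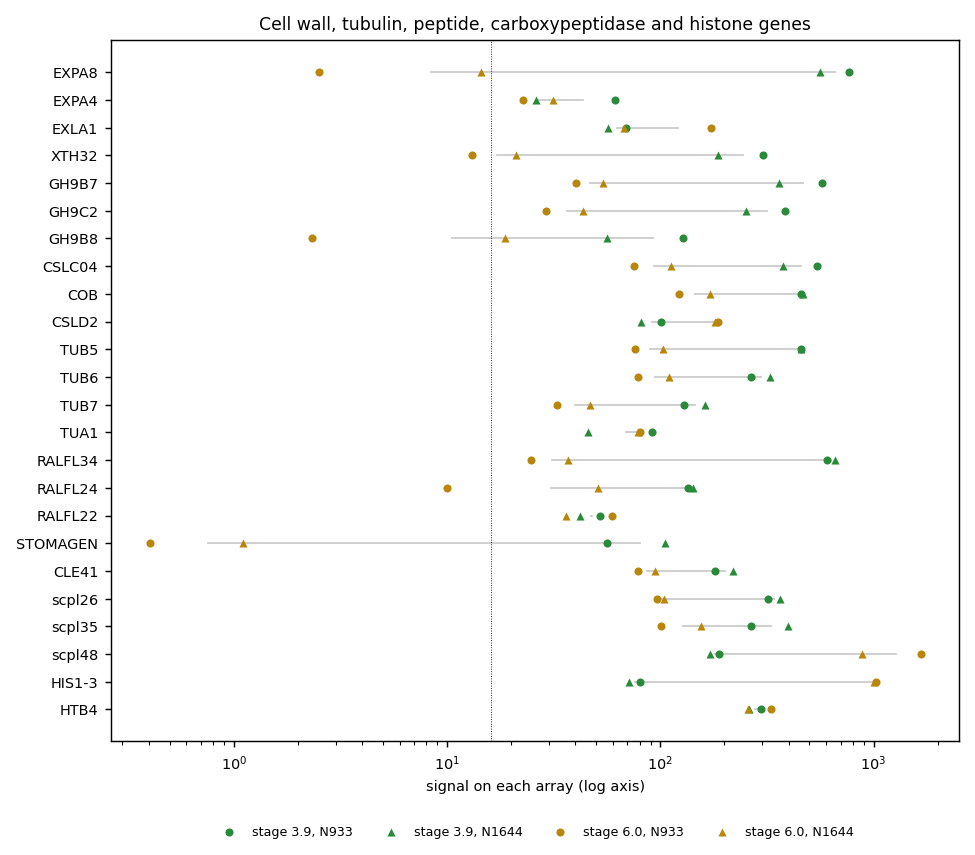
Signal on each of the 4 wild type arrays (x axis, log scale) for wall, tubulin, peptide, carboxypeptidase and histone genes. Green marks stage 3.9 and ochre stage 6.0, circles stock N933 and triangles stock N1644, grey lines join the stage means and the dotted line is the added 16. RALFL34, EXPA8 and XTH32 separate widely, HIS1-3 and scpl48 are higher at stage 6.0, and HTB4, TUA1 and RALFL22 overlap.

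Of 7 chromatin and replication genes tested, 2 rose and 2 fell, beside 17.8% and 17.1% of all genes. HIS1-3, a linker histone variant known for its response to drought and low light, had 80.5 and 71.2 at stage 3.9 and 1028 and 1009.7 at stage 6.0, a change of 3.50 ± 0.30 (log2 ± SE, adjusted p = 1.08e-05). The arrays of each stage lay close together and far from those of the other. The linker histone HON4 rose by 0.77 ± 0.24, but the call was lost without stage 3.9 array 2 (0.64, adjusted p = 0.125) and without stage 6.0 array 1 (0.40, adjusted p = 0.245). The core histone HTB2 fell, with 75.0 and 114 at stage 3.9 and 28.6 and 46.6 at stage 6.0 and a change of -1.05 ± 0.26, and its call was lost without stage 6.0 array 1 (-0.80, adjusted p = 0.0789). The other core H2B histones HTB1, HTB11 and HTB4 stood at -0.26 ± 0.21, -0.19 ± 0.26 and 0.07 ± 0.19, and did not pass. The call of HTB2 was lost with scaling to the controls.

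Protease genes did not move as one. Among 42 aspartic, serine, metallo and ubiquitin-specific protease genes 5 rose and 12 fell, with a median of 0.04, and 11 rose and 0 fell with scaling to the controls. The falls numbered 7 without stage 3.9 array 2 and 6 without stage 6.0 array 2. Serine carboxypeptidase-like genes made up most of the falls. Of 12 tested, 9 fell and 1 rose, with a median of -0.71; without stage 6.0 array 2 there were 5 falls, and with scaling to the controls 0 fell and 3 rose, with a median of -0.05. The gene scpl26 had 320.4 and 364 at stage 3.9 and 96.1 and 104 at stage 6.0, a change of -1.62 ± 0.21 (log2 ± SE, adjusted p = 0.000194), and scpl35 changed by -1.27 ± 0.24. The riser was scpl48, with 188 and 172 at stage 3.9 and 1666 and 887 at stage 6.0, a change of 2.66 ± 0.26 (log2 ± SE, adjusted p = 2.84e-05). Its stage 6.0 arrays differed from each other but both exceeded both stage 3.9 arrays. Subtilases, another class of serine proteases, also split. SBT1.3 had 95.0 and 125 at stage 3.9 and 29.3 and 30.4 at stage 6.0, a change of -1.45 ± 0.18. SBT3.5 had 74.3 and 39.8 at stage 3.9 and 264 and 300.1 at stage 6.0, a change of 2.07 ± 0.25. APA1, a vacuolar aspartic protease, rose by 1.07 ± 0.21 to signals of 2935 and 2663. None of the 10 ubiquitin-specific protease genes passed in limma; 1 of them had an unadjusted p under 0.05, and 2 rose with scaling to the controls. The calls of SBT1.3, scpl35 and scpl26 were lost with scaling to the controls.

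Glycosidases and glycosyltransferases showed both directions as well. Of 11 beta-glucosidase genes tested, 6 fell and 3 rose, with 2 falls without stage 3.9 array 2, 1 rise without stage 6.0 array 1 and 1 fall with scaling to the controls. BGLU44 had 1943 and 1716 at stage 3.9 and 309 and 386 at stage 6.0, a change of -2.35 ± 0.20 (log2 ± SE, adjusted p = 9.86e-06). BGLU46, known for acting on lignin precursors, had 1.82 and 1.01 at stage 3.9 and 46.4 and 27.8 at stage 6.0, a change of 1.59 ± 0.27 that depends on the added 16. Of 23 UDP-glycosyltransferase genes, which attach sugars to hormones, flavonoids and other small molecules, 9 rose and 1 fell, with a median of 0.26 and 5 rises without stage 6.0 array 2. UGT87A2 had 174 and 184 at stage 3.9 and 1316 and 866 at stage 6.0, a change of 2.48 ± 0.28 (log2 ± SE, adjusted p = 6.83e-05). GT72B1, which glucosylates lignin precursors and xenobiotics, changed by 1.20 ± 0.23. Of 8 phenylpropanoid, lignin and flavonoid genes tested, 5 rose and 0 fell, with a median of 2.31. Among them CCOAMT, a methyltransferase of lignin precursors, and CHIL, a chalcone isomerase-like protein, had log2 changes of 1.95 ± 0.22 and 2.67 ± 0.24. CCOAMT had 39.5 and 39.3 at stage 3.9 and 182 and 217 at stage 6.0, without overlap. HCT, a shikimate transferase of the lignin branch, stood at 0.17 ± 0.24 and did not pass. Trichome birefringence-like genes, which acetylate wall polymers, fell in 4 and rose in 1 of 10 cases, with 1 fall under scaling to the controls. TBL45 had 146 and 119 at stage 3.9 and 21.6 and 37.1 at stage 6.0, a change of -1.73 ± 0.29, and TBL38, the riser, 72.6 and 50.5 at stage 3.9 and 323 and 329 at stage 6.0, a change of 2.16 ± 0.18.

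Genes of the machinery that marks proteins for removal or delivers them to the vacuole rose in part, and none of those on the 4 lists given here fell. Of 15 ubiquitin ligase and conjugating enzyme genes tested, 8 rose and 0 fell, with a median of 0.68, and 5 rose without stage 6.0 array 1. PUB43 and PUB19, U-box ligases, changed by 1.40 ± 0.19 and 1.43 ± 0.22. UBC32, a conjugating enzyme of the endoplasmic reticulum, had 201 and 188 at stage 3.9 and 515 and 429 at stage 6.0, a change of 1.21 ± 0.18 (log2 ± SE, adjusted p = 0.00043). Autophagy and vacuolar processing genes rose in 10 of 14 cases, 6 without stage 6.0 array 1, with a median of 1.01. The ESCRT complexes sort membrane proteins into vesicles bound for the vacuole, and in that list, drawn up after values were seen, 7 of 12 genes rose and 0 fell, with a median of 0.72 (1.41 with scaling to the controls). VPS2.1 had 189 and 152 at stage 3.9 and 365 and 318 at stage 6.0, a change of 0.94 ± 0.24 (log2 ± SE, adjusted p = 0.0102). The stages did not overlap, but the call was lost without stage 3.9 array 2 (0.80, adjusted p = 0.056) or stage 6.0 array 1 (0.85, adjusted p = 0.063). The count of ESCRT rises was 4 without stage 3.9 array 1 and 1 without stage 3.9 array 2 or stage 6.0 array 1, whereas the median stayed between 0.59 and 0.70 in each. In the wider list of 24 vesicle traffic genes, which holds most of the ESCRT genes, 8 rose and 0 fell, with 2 rises without stage 3.9 array 2, 3 without stage 6.0 array 1 and 5 without stage 6.0 array 2. KEU, a partner of membrane fusion proteins, had 155 and 151 at stage 3.9 and 259.6 and 246 at stage 6.0, a change of 0.67 ± 0.16. The list does not hold every vesicle traffic gene. Of 10 genes tested in the PRA family, formed by its shared symbol, 2 rose and 2 fell.

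Some genes for the use of amino acids, purines and organic acids as fuel or nitrogen source rose. Of 8 amino acid breakdown genes 3 rose and 0 fell, with a median of 0.43. AT4G33150, given in the names table as the bifunctional lysine breakdown enzyme LKR/SDH, had 33.0 and 50.3 at stage 3.9 and 724 and 347 at stage 6.0, a change of 3.19 ± 0.29 (log2 ± SE, adjusted p = 1.82e-05). ALDH6B2, which acts in valine breakdown, changed by 1.02 ± 0.17. IVD and MCCA, of leucine breakdown, stood at 0.47 ± 0.19 and -0.23 ± 0.17 and did not pass. In a list of respiratory and organic acid enzymes drawn up after values were seen, 10 of 22 rose and 0 fell, with a median of 0.50, and 6 rose without stage 6.0 array 1. NDB2, an alternative NADH dehydrogenase on the outer face of the inner mitochondrial membrane, had 104 and 50.6 at stage 3.9 and 295 and 276 at stage 6.0, a change of 1.76 ± 0.26 (log2 ± SE, adjusted p = 0.000401), while its relative NDB1 stood at -0.56 ± 0.26 and did not pass. SDH1-1, the catalytic subunit of succinate dehydrogenase, had 162 and 160.1 at stage 3.9 and 428 and 287 at stage 6.0, a change of 1.05 ± 0.21. PPDK, which links pyruvate to organic acids for export, had 275 and 165 at stage 3.9 and 797 and 628 at stage 6.0. The signals of these 3 risers were higher on both stage 6.0 arrays. In the purine list, drawn up in the same way, 3 of 4 genes rose, or 1 without stage 6.0 array 1. ALN, the allantoinase that opens the purine breakdown product allantoin, had 72.1 and 47.4 at stage 3.9 and 155 and 211 at stage 6.0, a change of 1.40 ± 0.25 (log2 ± SE, adjusted p = 0.00128). ATP-citrate lyase, which makes cytosolic acetyl-CoA for waxes and flavonoids, fell in 3 of 4 genes of a list drawn up after values were seen, among them ACLA-1 (-0.93 ± 0.23) and ACLA-2 (-1.0 ± 0.21), while ACLA-3 stood at 0.46 ± 0.20 and did not pass; no ATP-citrate lyase fall passed with scaling to the controls.

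Sugar and starch genes were mixed. Of 15 sugar transport and sucrose genes 6 rose and 1 fell, and 3 rose without stage 6.0 array 1. SWEET17, a fructose transporter of the vacuole, had 471 and 249.8 at stage 3.9 and 61.7 and 90.8 at stage 6.0, a change of -1.98 ± 0.30 (log2 ± SE, adjusted p = 0.000511). Both stage 3.9 arrays were higher than both stage 6.0 arrays. The cell wall invertase-like cwINV6 changed by 1.32 ± 0.20 and the sugar transporter SFP1 by 1.11 ± 0.21. AMY1, a secreted alpha-amylase, had 82.6 and 82.3 at stage 3.9 and 546 and 265 at stage 6.0, a change of 2.01 ± 0.29 (log2 ± SE, adjusted p = 0.000356). GTR2, a transporter that loads glucosinolates into the phloem, had 186 and 166 at stage 3.9 and 627 and 544 at stage 6.0, a change of 1.65 ± 0.17 (log2 ± SE, adjusted p = 4.46e-05).

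Most of the calcium and auxin signalling genes tested rose. Of 10 calcium sensor and glutamate receptor-like channel genes 6 rose and 0 fell, with a median of 0.98 (1.63 with scaling to the controls). CML41, a calmodulin-like protein, had 96.4 and 80.4 at stage 3.9 and 975 and 508 at stage 6.0, a change of 2.79 ± 0.32 (log2 ± SE, adjusted p = 7.28e-05). ATGLR1.2, a glutamate receptor-like channel, had 27.9 and 26.1 at stage 3.9 and 159.5 and 176 at stage 6.0, a change of 2.09 ± 0.16 (log2 ± SE, adjusted p = 5.09e-06). Its replicate arrays lay close together at both stages. CML42, at -0.16 ± 0.17, did not pass. Of 5 auxin genes 4 rose and 1 fell. Those of the GH3 type, which conjugate auxin to amino acids and so lower its active pool, were GH3.3 at 2.08 ± 0.33, WES1 at 1.75 ± 0.22 and GH3.17 at 1.51 ± 0.31, all past the threshold. WES1 had 43.1 and 37.9 at stage 3.9 and 232 and 129 at stage 6.0. IAA29, an auxin-responsive repressor, fell, with 159 and 53.9 at stage 3.9 and 9.96 and 25.3 at stage 6.0 and a change of -1.76 ± 0.42, which missed the threshold without stage 6.0 array 1 (-1.42, adjusted p = 0.0583). GID1B, a gibberellin receptor, had 25.3 and 16.7 at stage 3.9 and 109 and 134 at stage 6.0, a change of 1.90 ± 0.24 (log2 ± SE, adjusted p = 0.000145), and its paralogues GID1A and GID1C stood at 0.53 ± 0.28 and 0.19 ± 0.24 and did not pass. The difference between these paralogues was not tested.

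Among transcription factors outside the best known senescence regulators, bZIP genes rose in 4 and fell in 1 of 11 cases, with a median of 0.32. BZIP53, a factor of amino acid metabolism under low energy, had 325 and 320.2 at stage 3.9 and 853 and 694 at stage 6.0, a change of 1.21 ± 0.18 (log2 ± SE, adjusted p = 0.000442). BZIP60, which acts in the unfolded protein response, changed by 1.24 ± 0.22 and bZIP44 by 1.58 ± 0.22. Of 5 WRKY genes 4 rose, and 2 without stage 3.9 array 2 or stage 6.0 array 1. WRKY47 had 49.0 and 42.3 at stage 3.9 and 106 and 131 at stage 6.0, a change of 1.12 ± 0.19. Both stage 6.0 arrays were above both stage 3.9 arrays. Late embryogenesis and dehydrin genes, whose proteins protect cells in drought and cold, rose in 4 and fell in 1 of 10 cases, or fell in 3 without stage 3.9 array 1. LTI30 had 115 and 88.6 at stage 3.9 and 1517 and 840.1 at stage 6.0, a change of 3.29 ± 0.28 (log2 ± SE, adjusted p = 1.08e-05). RD2 had 511 and 515 at stage 3.9 and 1318 and 1241 at stage 6.0, a change of 1.29 ± 0.17, and AT2G44060, given as LEA26 in the names table, changed by -0.90 ± 0.20. AT1G54410, the dehydrin HIRD11 of that table, was among the brighter genes at both stages, with 2259 and 3838 at stage 3.9 and 1917 and 2232 at stage 6.0, and did not pass (-0.51 ± 0.24). The call of AT2G44060 was lost with scaling to the controls.

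Among the 15 highest and the 15 lowest changes of genes with a mean signal of at least 200 at the brighter stage, 12 of each carry only a locus code in the names table, as do 5459 of the 6414 genes tested. AT3G18250 had 115 and 50.2 at stage 3.9 and 1088 and 1159 at stage 6.0, and AT5G39520 36.4 and 38.9 at stage 3.9 and 2434 and 1651 at stage 6.0. Both were dim or moderate at stage 3.9 and among the bright genes on both stage 6.0 arrays. In the other direction AT4G16980 had 2466 and 2596 at stage 3.9 and 140.3 and 161 at stage 6.0, a change of -3.94 ± 0.19 (log2 ± SE, adjusted p = 4.18e-07), and AT3G16370 2156 and 2847 at stage 3.9 and 43.1 and 58.8 at stage 6.0. AT1G51400, with 4621 and 3001 at stage 3.9 and 271 and 275 at stage 6.0, and AT2G45180, with 5214 and 4411 at stage 3.9 and 1111 and 1194 at stage 6.0, were among the 8 largest losses of signal. The neighbouring genes AT1G29660 and AT1G29670 both fell, with changes of -4.04 ± 0.30 and -4.39 ± 0.31. DRT100, named for tolerance of DNA damage, had 413 and 586 at stage 3.9 and 18.4 and 21.8 at stage 6.0, a change of -3.82 ± 0.23. The 5 genes of mean signal at least 1000 with the smallest change included AT2G14910, with 1134 and 1144 at stage 3.9 and 1233 and 1047 at stage 6.0, and AT1G53210, the sodium/calcium exchanger NCL of the names table, with 1499 and 2278 at stage 3.9 and 1908 and 1687 at stage 6.0. Each of the 5 lay within 0.05 of 0 on the log2 scale.

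Stage 6.0 signals of 3 of these extremes are given beside those of the other genotypes, as values with no test or count. The genes were chosen by their change in wild type, so any difference from the same 2 stage 6.0 wild type arrays is not independent of that choice, and these 3 were picked with their values in view. NahG plants carry a salicylate hydroxylase that degrades salicylic acid, and ein2 and coi1 are known as ethylene-insensitive and jasmonate-insensitive mutants. The labels conflict here: arrays labelled coi1 and those labelled ein2 share 1 stock code, so the coi1 genotype rests on other labels. EXPA8 signals were 37.0 and 42.3 in NahG, 2.72 and 14.8 under the ein2 label and 16.6 and 13.7 under the coi1 label, against 2.52 and 14.4 in wild type. Those of RALFL34 were 106 and 101, 68.0 and 51.4 and 46.2 and 37.3 in the same order, against 24.9 and 36.9. On every stage 6.0 array both genes were below their stage 3.9 signals in wild type. AT1G30700, a gene that rose, had 272 and 387 in NahG, 60.8 and 145 under the ein2 label and 60.6 and 78.5 under the coi1 label, against 322 and 243 in wild type.

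The changes in each stock can be set side by side. Over the 12184 probe sets, the change in N933 and that in N1644, from 1 array a stage each, correlated with r = 0.81 as a description over probe sets that share arrays, and 76.3% had the same sign. The threshold itself favours probe sets with like changes in both stocks, so agreement among those that passed is no separate result. Of those, 27 differed by more than 2 between the stocks. AT1G66100, a fall in both, had 2271 and 483 at stage 3.9 and 32.1 and 65.9 at stage 6.0. AT4G23680, a rise, had 17.2 and 23.3 at stage 3.9 and 505 and 78.8 at stage 6.0, with a change of 3.97 in N933 and 1.27 in N1644. The call for AT4G23680 was lost without stage 6.0 array 1 (1.39, adjusted p = 0.0503). These differences between the stocks were not tested.

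**Figure D5:**
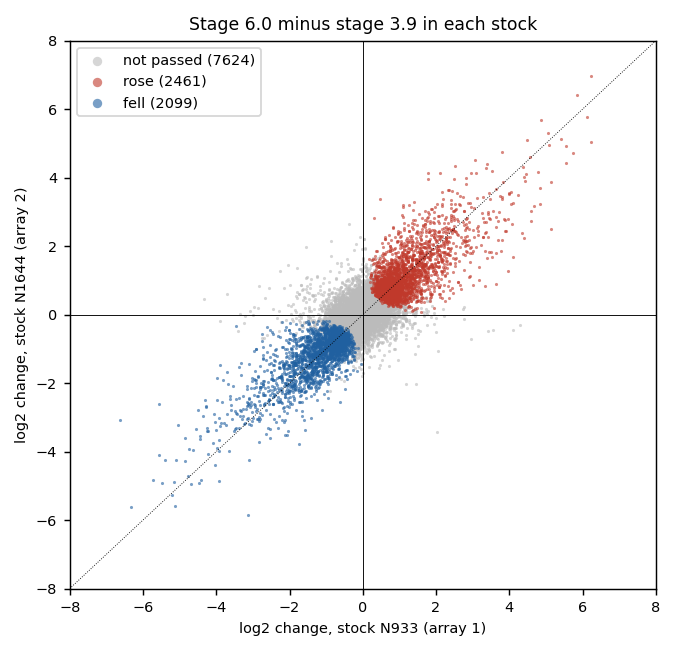
Log2 change from stage 3.9 to stage 6.0 in stock N933 (x axis) and in stock N1644 (y axis) for 12184 probe sets, each from 1 array a stage. Red points rose, blue points fell and grey points did not pass, and the dotted line marks equal change. Points spread along that line (r = 0.81), and points that passed lie in the quadrants of equal sign, as the threshold favours.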

How the data were processed

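RNA of 10 leaf samples was hybridised to Affymetrix arrays with 22810 probe sets each. The deposited values are linear intensity values made by the authors with MAS5, per the submitters' processing notes, for which no version is given in the sources used here. The 64 control probe sets were dropped, each array was scaled to a 2% trimmed mean of 100, and 12184 probe sets with at least 50 on at least 2 arrays were kept. Log2(signal + 16) was fitted with limma 3.58.1 (R 4.3.3; lmFit, eBayes with trend) over the 10 arrays in 5 groups (5 residual and 5.74 prior degrees of freedom; median SE 0.21), and p-values were adjusted by Benjamini-Hochberg over all probe sets tested. Tables were made with numpy 2.4.6 and pandas 2.3.3 in Python 3.11.15, and figures with matplotlib 3.10.9. With 2 arrays a group, the number of arrays limits the precision.

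Genes were named from the platform annotation, updated through a RefSeq table of assembly TAIR10.1. Of the probe sets, 13513 named 1 gene, 503 several and 8730 none; of those tested, 6452 named 1 gene. Probe sets with several genes were not named, and of several for 1 gene the brightest was used; 35 genes had several and none of these had opposite calls.

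The members and lists were chosen with earlier results of these data known. There were 70 lists and 9 more drawn up after values were seen, and 31 members whose symbol matched by accident were removed after the matches were seen. By the rule, genes that passed without overlap of the stages were named as the 15 highest and 15 lowest changes with a mean of at least 200 at the brighter stage, the 8 largest gains and losses of signal, up to 4 per list, and the 4 that differ most between stocks. Whether or not they passed, up to 2 bright members of a list with no call, the 4 genes of largest opposite change in the stocks and the 5 smallest changes at a mean of at least 1000 were named as values. Other members of a list or family, named as paralogues or as members that did not pass, were picked with their values in view.

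The stock, given by the labels at both stages, pairs the wild type arrays; deviations from stage means correlated with 0.0762 between same-stock arrays. Alternatives were other filters, constants, scalings and blocks and each array left out. On simulated data for the stage comparison, with 200 of 12184 probe sets changed, 88% of log2 changes of 1 and 100% of changes of 2 were recovered, with 3.09% false calls. The simulated noise was independent and normal, with no array standing apart, and far fewer probe sets changed than the 37.4% that passed here. These shares therefore need not hold for the data.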

Additional observations from a re-analysis of the deposited data

Results flagged for a closer look

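For 4 genes with a mean signal of at least 200 over the wild type arrays the stage change ran in opposite directions in the stocks, with 1 array a stock and stage, and in each case the difference between the stocks was not tested. The change in N1644 minus that in N933 was 4.80 (log2) for rpoB, from -4.34 in N933 and 0.46 in N1644, and 4.29 for rps14, from -3.70 and 0.59, both of which rest on the low signals of stage 6.0 array 1. It was -4.02 for COR27, a cold-regulated gene, which had 10.9 and 399 at stage 3.9 and 300.5 and 285 at stage 6.0 and changed by 3.56 in N933 and -0.46 in N1644. It was -3.22 for LCR69, which encodes a small cysteine-rich defensin-like protein and had 298 and 810.3 at stage 3.9 and 696 and 185 at stage 6.0. None of the 4 passed in the comparison of stages.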

How the results depend on the processing

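The number of probe sets that passed (4560) lay between 3192 and 4405 when 1 array was left out, with 1703 to 2373 rises and 1489 to 2034 falls, and the lowest counts came without stage 6.0 wild type array 1. Other filters changed the number tested as well. A signal minimum of 100 gave 3687 of 8146 (45.3%) and the filter on wild type arrays 4574 of 10830 (42.2%). No filter gave 4322 of 22746 (19.0%), against 37.4% of 12184 in the main setting. With 12184 tested, other settings gave 4481 and 4573 (1 or 64 added), 4700 (quantile normalization) and 3361 (wild type arrays alone). Scaling to the 18 hybridisation controls gave 4274, split into 3827 rises and 447 falls. Under that scaling the sign turned for bHLH115 (0.14), LYC (0.17), OTP84 (0.0145), ACLB-1 (0.13) and the carotenoid median (0.0197); none of the 4 genes passed there. Of 210 genes named by the rule, 37 lost their call without stage 6.0 array 1, 24 with wild type arrays alone and 35 with control scaling, beside the 4 whose sign turned. With wild type arrays alone, sugar genes that rose numbered 3, vesicle traffic genes 5 and purine breakdown genes 1, against 6, 8 and 3. Calls under 2 arrays a group and dim probe sets near 16 limit the precision.

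With the stock as a replicate block over the wild type arrays alone, 3800 probe sets passed (2019 rises, 1781 falls) and 10 of the 210 genes lost their call. With the replicate number as a block over all arrays, 4310 passed (2314 rises, 1996 falls) and 2 lost it.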

Other observations

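Of 5 genes tested for glutathione S-transferases, which couple glutathione to reactive compounds, 1 rose and 2 fell, beside 17.8% and 17.1% of all genes. GSTU20 had 860.2 and 1243 at stage 3.9 and 386 and 168 at stage 6.0, a change of -1.95 ± 0.32 (log2 ± SE), and GSTU18 had 437 and 378 at stage 3.9 and 103 and 113 at stage 6.0, a change of -1.77 ± 0.18. Both were higher on both stage 3.9 arrays. Starch and maltose genes rose in 3 and fell in 1 of 7 cases, with 5 rises without stage 3.9 array 2. Chaperone genes numbered 5, of which 2 rose and 1 fell, with 1 rise and up to 2 falls without stage 3.9 array 1 or either stage 6.0 array. Cpn60beta2, which folds proteins in the chloroplast, had 215 and 362 at stage 3.9 and 54.4 and 48.4 at stage 6.0, a change of -2.13 ± 0.27, while the stress chaperone Hsp70-2 changed by 1.35 ± 0.26. PAP20, a purple acid phosphatase, had 5.04 and 1.91 at stage 3.9 and 265 and 179.9 at stage 6.0, a change of 3.60 ± 0.25, and the osmotin gene OSM34 had 15.8 and 0.705 at stage 3.9 and 209 and 250.3 at stage 6.0.

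By gene order in the names table, 1614 pairs of neighbouring genes were both tested. Both members rose in 72 pairs (4.46%), both fell in 45 (2.79%) and they moved in opposite directions in 99 (6.13%). Runs of at least 3 neighbours with the same call numbered 7. One of them held AMY1 and SWEET14, a sucrose transporter, with ATGP4. Whether neighbours move together beyond the shares of single genes was not tested.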
